A study of Homo sapiens with 15 samples.

Results

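The comparison described here asked which RNAs were recovered more with 1 of the 2 splice isoforms of UPF1 than with the other, after the level of each RNA in the cells was taken into account. HEK-293 Trex cells were used, a line established from human embryonic kidney in which doxycycline induces a transgene. They expressed UPF1 isoform 1 (UPF1-1) or UPF1 isoform 2 (UPF1-2), each fused to a CLIP tag, a protein tag that reacts covalently with a small ligand, and both lines received doxycycline at 200 ng/mL. Total RNA was sequenced from both lines, as was the RNA that came down with the purified tagged protein (IP). This gave 4 groups of 3 libraries, numbered 1 to 3, so 12 of the 15 libraries of the series were used. The others were total RNA of cells with CLIP-tagged GFP, for which no IP was among the samples. Per gene and replicate number, recovery was the log2 of IP over total RNA in TPM, the length-scaled share of transcripts, plus 0.5, with all library medians set equal. The median gene was thus near 0 but not at it: the median recovery was -0.18 to -0.13, depending on isoform and number. The value followed below is recovery with UPF1-1 minus recovery with UPF1-2, on the log2 scale, and a positive value means higher recovery with UPF1-1. It was tested for 11969 of the 12261 genes of the table, those with at least 1 TPM in at least 3 of the 12 libraries. Each construct was in its own line, so differences between the lines and effects of the isoforms cannot be told apart. The labels do not state that replicates were grown separately, and the p-values therefore measure only the spread between these samples, which may be technical. Each combination of isoform and number is called a culture below.

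UPF1 is an RNA helicase that moves along RNA with the energy of ATP and is the core factor of nonsense-mediated decay (NMD), the pathway that degrades mRNAs whose translation ends in an unusual context, such as at a premature stop codon or before a long 3' untranslated region. It also binds many mRNAs that are not degraded, and ATP hydrolysis helps it leave them. Alternative splicing changes the length of a regulatory loop in its helicase core, and the longer loop belongs to isoform 1. PTBP1 and HNRNPL are RNA-binding proteins known to protect some transcripts from UPF1.

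The labels and libraries were checked first. UPF1 was at 106, 94.5 and 186 TPM in UPF1-1 total RNA and at 68.9, 72.7 and 171 TPM in UPF1-2 total RNA, against 3.24 to 8.57 TPM with GFP. Its recovery was 2.20, 2.18 and 1.81 with UPF1-1 and 2.35, 2.33 and 2.49 with UPF1-2, and the difference of -0.33 ± 0.13 (SE) did not pass (limma adjusted p = 0.15). UPF1 RNA was therefore high in every UPF1 library and highest in number 3. Number 3 also stood apart in the share of the TPM scale that the listed genes held, which was 69.9% and 69.6% in its IPs against 44.7% to 49.4% in the other IPs. Of the kidney line markers, KRT8, KRT18, VIM, CDH2 and NEFL were present in total RNA and PAX2 was not in the table. Of the 8 genes of other cell types, only HBA1 was in the table, at 1.85 to 7.22 TPM.

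Recovery differed between the isoforms for a minority of genes, in both directions. With UPF1-1, recovery was higher for the cytoplasmic noncoding RNA LINC00657, known as NORAD, for the snoRNA host ZFAS1, and for mRNAs of membrane proteins such as TMEM14C and TRAM1. With UPF1-2, it was higher for the mRNAs of the chaperone HSP90AB1 and the elongation factor EEF2, for 20 of 37 aminoacyl-tRNA synthetases, for 14 of 34 proteasome subunits and for 7 of 14 CCT chaperonin and prefoldin subunits. By limma with Benjamini-Hochberg adjustment, 530 genes were higher with UPF1-1 (4.43% of 11969 tested) and 750 with UPF1-2 (6.27%), 1280 in all (10.7%). The median difference of the genes called was 0.64 and -0.55, and most were modest: 30 and 8 genes reached 2-fold. The 3 recovery values of the isoforms did not overlap in any of the 1280, while over all genes tested non-overlap occurred in 15.7% in favour of UPF1-1 and 19.5% in favour of UPF1-2. The sign was the same in all 3 numbers for each of the 1280, as it was for 25.7% of all genes tested in favour of UPF1-1 and 33.9% in favour of UPF1-2 (59.5% in all).

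How many genes passed depended on the block and on single cultures, while the direction of the genes called did not change under any setting run. That direction was close to fixed in advance, since each of the 1280 had the same sign in all 3 numbers. A change of block leaves the estimates as they are. Same-numbered ratios of the isoforms deviated together (r = 0.18, 0.41 and 0.51 over genes). Numbers 1 and 2 also did so crosswise (r = 0.15 and 0.16), so whether the number pairs the isoforms is not settled. With the number as a block across isoforms 1212 genes (10.1%) were higher with UPF1-1 and 1785 (14.9%) with UPF1-2, the 1280 included. Without any block limma called 0 genes in either direction, with 846 at an unadjusted p under 0.05. It also called 0 without number 1 (1599 at an unadjusted p under 0.05), without number 2 (2513), and without any of the single cultures UPF1-1 number 1 (2578), UPF1-2 number 1 (2708) and UPF1-2 number 3 (2834). Leaving out number 3, which stood apart, gave 523 and 581. Setting the 75th percentiles of the libraries equal in place of the medians gave 846 higher with UPF1-1 and 459 with UPF1-2, so 64.8% of calls were then on the UPF1-1 side against 41.4%. Where a fit called 0 genes, no gene or list described below passed in it.

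**Figure D1:**
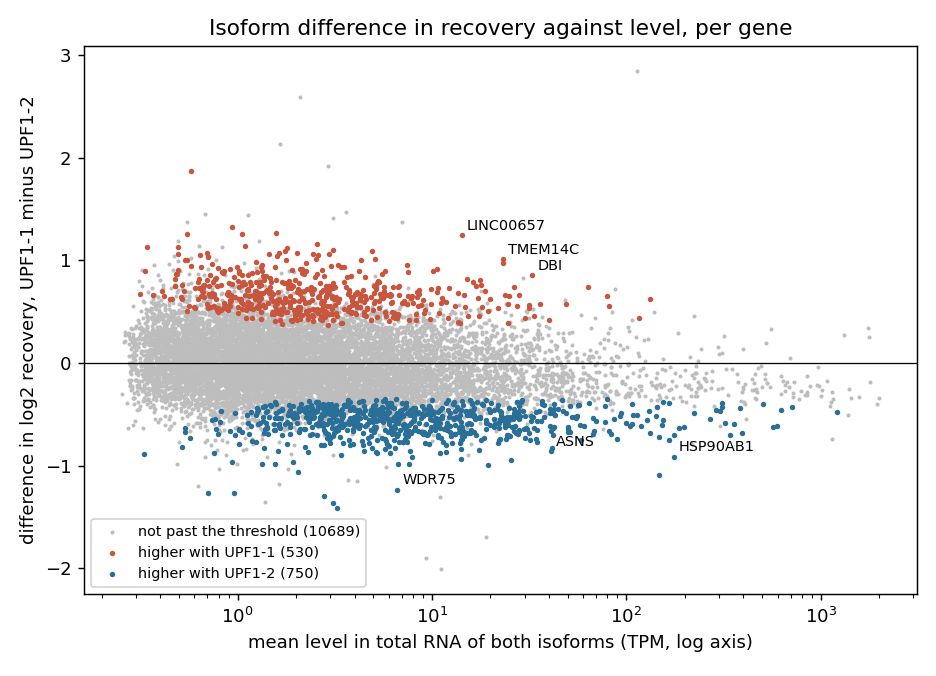
Difference in log2 recovery, UPF1-1 minus UPF1-2, for each of the 11969 genes (vertical axis) against the mean TPM in total RNA of both isoforms (horizontal, log axis); red points are the 530 genes higher with UPF1-1, blue points the 750 higher with UPF1-2 and grey points the rest. Red points thin out above about 10 TPM, where blue points continue to levels with few red ones, and some of the widest differences are grey, with replicate numbers far apart.

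The genes on each side differed in level. Those higher with UPF1-1 had a median of 2.19 TPM in total RNA, close to the 2.07 TPM of all genes tested, while those higher with UPF1-2 had a median of 6.46 TPM. In the lowest quartile of total RNA level (under 0.919 TPM) 3.01% of genes were higher with UPF1-1 and 0.468% with UPF1-2, and in the highest (over 5.63 TPM) 3.51% and 14.0%. A share near 14.0% is thus the level of the UPF1-2 side among abundant mRNAs in general. Under the block across isoforms the lowest quartile had 207 and 71 genes on the sides of UPF1-1 and UPF1-2 and the highest 264 and 891. Total RNA level enters the ratio itself, so this is a description and not an independent property. Mean recovery over both isoforms separated the sides less: 4.01% of the quartile recovered least and 8.86% of the quartile recovered best were higher with UPF1-2.

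Long noncoding RNAs (lncRNAs) were called mostly on the UPF1-1 side, at shares close to those of the lowest level quartile (3.01% and 0.468%). Of 510 lncRNAs tested, 14 were higher with UPF1-1 (2.75%) and 3 with UPF1-2 (0.588%), with a median of 0.12. Of 10560 protein-coding genes, 492 (4.66%) were higher with UPF1-1 and 735 (6.96%) with UPF1-2, with a median of -0.06, close to all genes tested. The counts with the block across isoforms were 47 and 8 for lncRNAs and 1095 and 1741 for protein-coding genes. Whether the 2 classes differ was not tested. One of the 3 lncRNA entries on the UPF1-2 side, ATP6V1G2-DDX39B (-0.67), is a readthrough of a protein-coding gene whose reads could be split with DDX39B.

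LINC00657 (ENSG00000260032), which sequesters Pumilio proteins in the cytoplasm, had the largest difference of the genes named by level. In total RNA it was at 11.0, 11.7 and 16.8 TPM with UPF1-1 and at 8.36, 11.5 and 25.8 TPM with UPF1-2, and in the IPs at 144.8, 126.5 and 364.3 TPM against 60.2, 60.1 and 148.4 TPM. Recovery was 1.22, 0.99 and 1.55 with UPF1-1 and 0.13, -0.16 and 0.05 with UPF1-2. All 3 UPF1-1 cultures lay above all UPF1-2 cultures, and the total RNA ranges overlapped. The difference was 1.25 ± 0.16 (SE, limma adjusted p = 0.015). Nuclear MALAT1 was recovered poorly with both isoforms, at -2.57, -2.57 and -2.33 with UPF1-1 and at -3.13, -3.24 and -3.07 with UPF1-2, and still differed by 0.66 ± 0.12 (adjusted p = 0.019). The other nuclear RNA best known beside it, NEAT1, did not pass (0.38 ± 0.19, adjusted p = 0.22), and of the 9 noncoding RNAs of that list these 2, MALAT1 and LINC00657, were called, and 4 with the block across isoforms.

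Further lncRNAs on the UPF1-1 side were chosen for mention after their values were seen. OIP5-AS1 (1.09 ± 0.11, adjusted p = 0.015) went from 0.87, 0.77 and 0.85 with UPF1-1 to -0.16, -0.17 and -0.45 with UPF1-2. The sign of its recovery thus changed with the isoform. FGD5-AS1 did likewise, from 0.48, 0.53 and 0.53 to -0.18, -0.26 and -0.26 (0.74 ± 0.09). The median recovery over genes was -0.18, -0.16 and -0.13 in the UPF1-2 cultures, so several of these values lay near it. The largest difference of all genes called was that of TMEM161B-AS1, 1.87 ± 0.36 (adjusted p = 0.022), at 0.419 and 0.731 TPM in total RNA, near the pseudocount. Strand use in the counting is not given in the sources used here, so reads of antisense RNAs and their partner genes cannot be told apart.

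ZFAS1 (ENSG00000177410), a snoRNA host whose spliced RNA is a known NMD target, had recoveries of 0.13, 0.40 and -0.56 with UPF1-1 and of -0.95, -0.72 and -1.27 with UPF1-2. Number 3 was the lowest with each isoform, and the difference was 0.97 ± 0.24 (adjusted p = 0.043). The isoforms' total RNA differed in the same direction as the IPs, by 0.35 ± 0.05 (SD, n = 3) against 1.32 ± 0.20. It was the only 1 of 15 snoRNA host genes called, while 12 of the 15 lay above 0 and the median was 0.23. Of all 11969 genes tested, 5345 lay above 0. With the block across isoforms 5 of the 15 were higher with UPF1-1. GAS5, the host best known as an NMD target, was at 0.72 ± 0.26 and did not pass (adjusted p = 0.11).

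Among mRNAs the UPF1-1 side was led by TMEM14C (ENSG00000111843), a mitochondrial membrane protein of heme synthesis. It stood at 26.7, 26.0 and 24.4 TPM in UPF1-1 total RNA and 19.1, 19.0 and 24.1 TPM in UPF1-2 total RNA, and at 198.3, 198.2 and 176.2 TPM against 78.0, 78.0 and 67.9 TPM in the IPs. The IP values were thus more than 2 times apart in every number while the total RNA values lay closer, and the difference was 1.01 ± 0.18 (adjusted p = 0.018). Its neighbour in the gene family, TMEM14B, had 0.66 ± 0.17 (adjusted p = 0.044). TRAM1 (ENSG00000067167), a membrane protein beside the translocon through which nascent chains enter the endoplasmic reticulum (ER), had recoveries of -0.20, -0.24 and -0.33 against -0.92, -1.10 and -1.40 (0.88 ± 0.14, adjusted p = 0.016). It stayed below the median gene with both isoforms, and further below with UPF1-2. B2M, the light chain of MHC class I, showed the same order at -0.73, -0.40 and -0.76 against -1.40, -1.24 and -1.70 (0.81 ± 0.15, adjusted p = 0.020).

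MDM2 (ENSG00000135679), the ubiquitin ligase of p53, was recovered above the median gene in all 6 cultures, at 1.26, 1.16 and 1.5 with UPF1-1 and 0.53, 0.45 and 0.19 with UPF1-2 (0.91 ± 0.13, adjusted p = 0.015). RNF11, a small ubiquitin ligase, was above the median gene in all UPF1-1 cultures, at 0.27, 0.26 and 0.24, and below it in all UPF1-2 cultures, at -0.40, -0.55 and -0.94 (0.89 ± 0.14, adjusted p = 0.016). DBI, an acyl-CoA binding protein, was recovered poorly with each isoform, at -1.23, -1.39 and -1.03 against -2.12, -2.17 and -1.92 (0.85 ± 0.13, adjusted p = 0.015). These genes were chosen by their direction, and among them were mRNAs that were well, moderately and poorly recovered. The minor spliceosome protein SNRNP48 (0.89), the mitotic kinase NEK7 (0.87), the open reading frame C8orf88 (0.95) and the desumoylating isopeptidase DESI2 (0.80) completed the leading 12, with adjusted p from 0.015 to 0.021. In 10 of these 12 the difference of number 3 was wider than those of numbers 1 and 2, as the plot of leading genes shows.

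**Figure D2:**
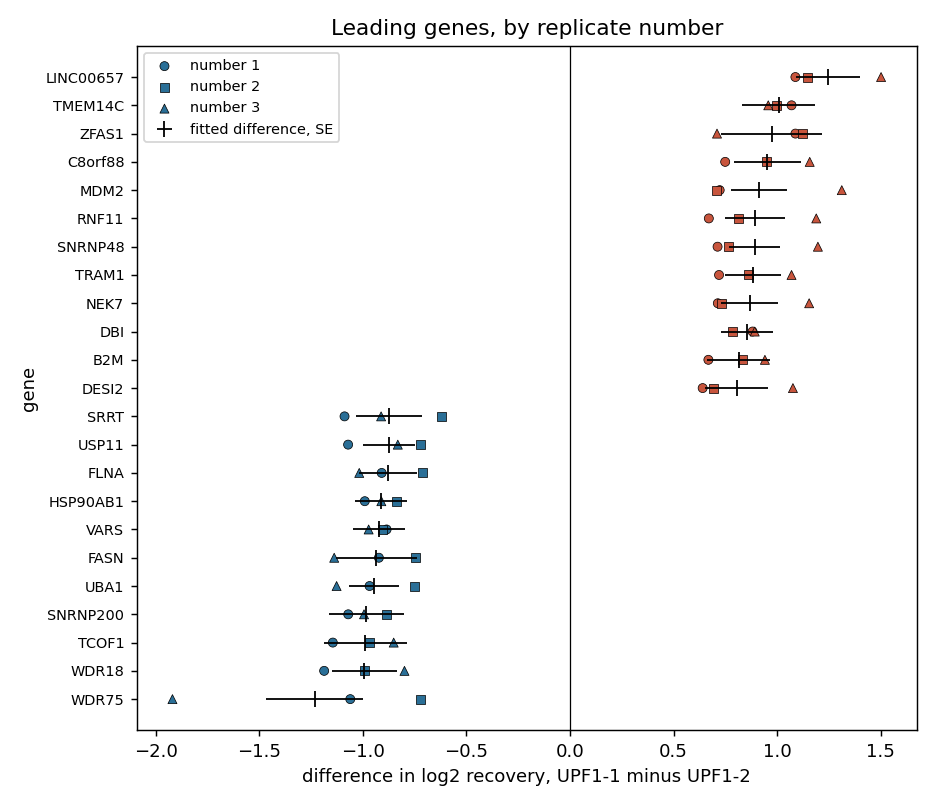
Difference in log2 recovery, UPF1-1 minus UPF1-2, of the genes with the largest differences, 12 higher with UPF1-1 and 11 higher with UPF1-2, among those with a mean of at least 5 TPM in all 4 groups; symbols mark the replicate number, and the cross gives the fitted difference with its standard error. Every point lies on its gene's side of 0, and WDR75 is the gene whose numbers spread most, from -0.72 to -1.92.

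On the UPF1-2 side, among genes with at least 5 TPM in each group, WDR75 (ENSG00000115368), a protein of ribosomal RNA processing, differed by -1.23 ± 0.23 (adjusted p = 0.021). Its recoveries were 0.76, 0.90 and -0.06 with UPF1-1 and 1.82, 1.62 and 1.86 with UPF1-2, so UPF1-1 number 3 alone lay below 0. That value was still above the median recovery over genes in the same culture, -0.18. UBA1, the main enzyme that activates ubiquitin, differed by -0.95 ± 0.12, with 0.10, -0.01 and -0.06 against 1.06, 0.74 and 1.07. USP11, which removes ubiquitin, differed by -0.87 ± 0.13 (adjusted p = 0.015 for both).

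HSP90AB1 (ENSG00000096384), the constitutive cytosolic HSP90, was the most abundant of the leading genes in the IPs. It reached 724.4, 647.5 and 2059 TPM in the UPF1-1 IPs and 1285, 1041 and 3010 TPM in the UPF1-2 IPs, from 140.4, 138.7 and 270.5 TPM and 109.0, 116.5 and 276.3 TPM in total RNA. Number 3 was highest in each group, and within each number the UPF1-2 IP was higher. Recovery was -0.08, -0.17 and 0.08 against 0.91, 0.67 and 0.99 (-0.91 ± 0.12, adjusted p = 0.015). The actin crosslinker FLNA (-0.88), the fatty acid synthase FASN (-0.94), the spliceosomal helicase SNRNP200 (-0.98), the nucleolar protein TCOF1 (-0.99), the ribosome biogenesis factor WDR18 (-0.99), the valyl-tRNA synthetase VARS (-0.92) and the cap-binding cofactor SRRT (-0.87) were the others, with adjusted p from 0.015 to 0.026. FLNA, VARS and SRRT lay below 0 in all 3 UPF1-1 cultures and above 0 in all 3 UPF1-2 cultures. VARS in UPF1-1 number 1, at -0.14, was level with the median recovery over genes in that culture, also -0.14.

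Each difference is the isoform difference in the IPs minus that in total RNA, and the IPs gave the larger part for most genes called. This held for 456 of 530 genes on the UPF1-1 side (86.0%) and 644 of 750 on the UPF1-2 side (85.9%), against 67.0% of all genes tested. The median IP part was 0.50 and -0.43, and the median total RNA part -0.14 and 0.13. In 436 (82.3%) and 652 (86.9%) of the genes called, total RNA moved opposite to the IP, which widens the ratio. Genes were called by the gap between the 2 parts, so the calls themselves favour opposite signs. The share over all genes tested is not given here. The parts share the libraries of the tested difference, so these counts are descriptions. In bulk RNA, more cells with a transcript and more of it per cell cannot be told apart.

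**Figure D3:**
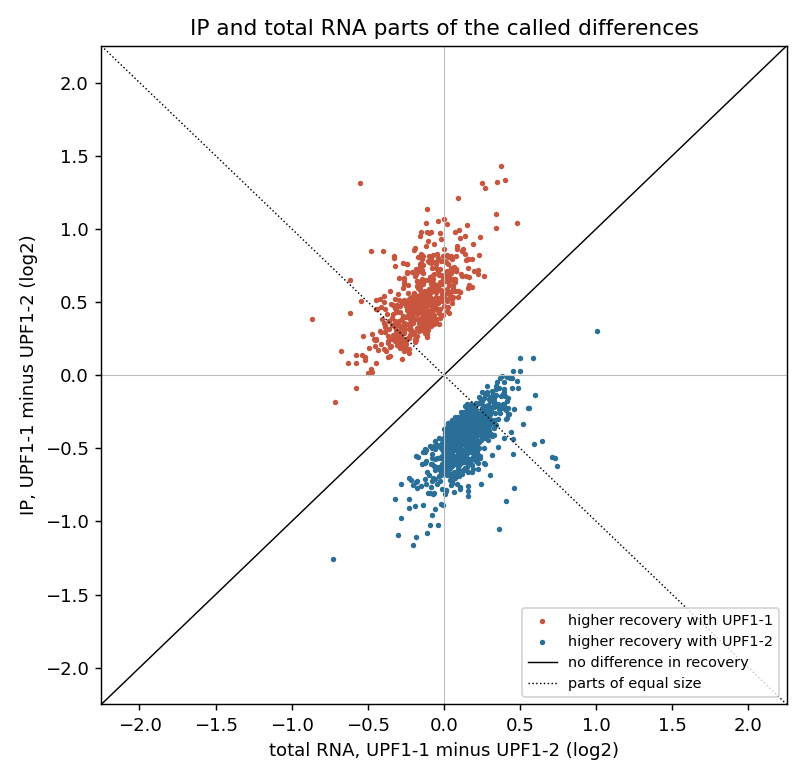
Isoform difference in the IPs (vertical axis, log2) against that in total RNA (horizontal axis, log2) for the 530 genes with higher recovery with UPF1-1 (red) and the 750 with higher recovery with UPF1-2 (blue); the solid diagonal marks no difference in recovery and the dotted diagonal parts of equal size. Most red points lie above the horizontal line and left of the vertical line, with the reverse for blue points, and few lie beyond the dotted line where total RNA is the larger part.

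Gene lists were read by their counts, beside 4.43% and 6.27% of all genes tested and a median of -0.04. Of the 11969 genes tested, 5345 lay above 0 and 6624 below. List counts with the block across isoforms are to be read beside 10.1% and 14.9% of all genes tested. In the highest quartile of level that block gave 264 and 891 of 2992 genes. The strongest lean was that of the aminoacyl-tRNA synthetases, enzymes that load amino acids on tRNAs. Of 37 tested, 20 were higher with UPF1-2 (54.1%), 0 were higher with UPF1-1, and 36 lay below 0, with a median of -0.46. With the block across isoforms 32 of the 37 were higher with UPF1-2, and without number 3 it was 19. Among the 27 in the highest quartile of level, where 14.0% of all genes were higher with UPF1-2, 16 were. VARS was at -0.14, -0.42 and -0.46 with UPF1-1 and at 0.75, 0.49 and 0.52 with UPF1-2. The mitochondrial tyrosyl-tRNA synthetase YARS2 was at -0.32, -0.34 and -0.54 against 0.26, 0.19 and 0.20 (-0.62 ± 0.10, adjusted p = 0.017), and the cytosolic alanyl-tRNA synthetase AARS differed by -0.65 ± 0.12 (adjusted p = 0.021). Both the cytosolic and the mitochondrial enzymes were thus among those called, and the list's median recovery went from below the median gene in each UPF1-1 culture (-0.17, -0.17 and -0.27) to above it in each UPF1-2 culture (0.28, 0.28 and 0.21).

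All called members of the 2 chaperone lists were on the same side. Of 14 CCT chaperonin and prefoldin subunits, which fold actin and tubulin, 7 were higher with UPF1-2 and 0 with UPF1-1, and all 7 were CCT subunits: CCT7 (-0.61), CCT8 (-0.55), CCT4 (-0.53), CCT3 (-0.52), CCT2 (-0.51), CCT5 (-0.48) and TCP1 (-0.36). CCT4 was typical, at -0.73, -0.65 and -0.67 against -0.12, -0.19 and -0.14. No prefoldin subunit passed. Of 21 heat shock chaperones 7 were higher with UPF1-2 and 0 with UPF1-1, with a median of -0.34 and 12 on the UPF1-2 side with the block across isoforms. Besides HSP90AB1 they included HSPA1A, at -0.01, -0.25 and -0.03 against 0.56, 0.52 and 0.89 (-0.75 ± 0.13, adjusted p = 0.018), whose near-identical copy HSPA1B makes its reads uncertain, and the mitochondrial HSP90 TRAP1 (-0.66). All 14 of the CCT and heat shock genes called were in the highest quartile of level.

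Proteasome subunits, which form the protease that degrades ubiquitinated proteins, were higher with UPF1-2 in 14 of 34 (41.2%), with 0 on the other side and a median of -0.37. Without number 3 it was 17, and with the block across isoforms 23. The ATPase subunit PSMC4 was at -0.78, -0.46 and -0.65 with UPF1-1 and at -0.02, 0.07 and 0.03 with UPF1-2 (-0.66 ± 0.11, adjusted p = 0.017). PSMD2 (-0.63) and the core subunit PSMB3 (-0.61) followed, so members of both the core and the regulatory particle were called. All 34 were in the highest quartile of level. Recovery of the list stayed below the median gene with both isoforms, at -0.95, -0.90 and -0.98 against -0.56, -0.60 and -0.62.

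**Figure D4:**
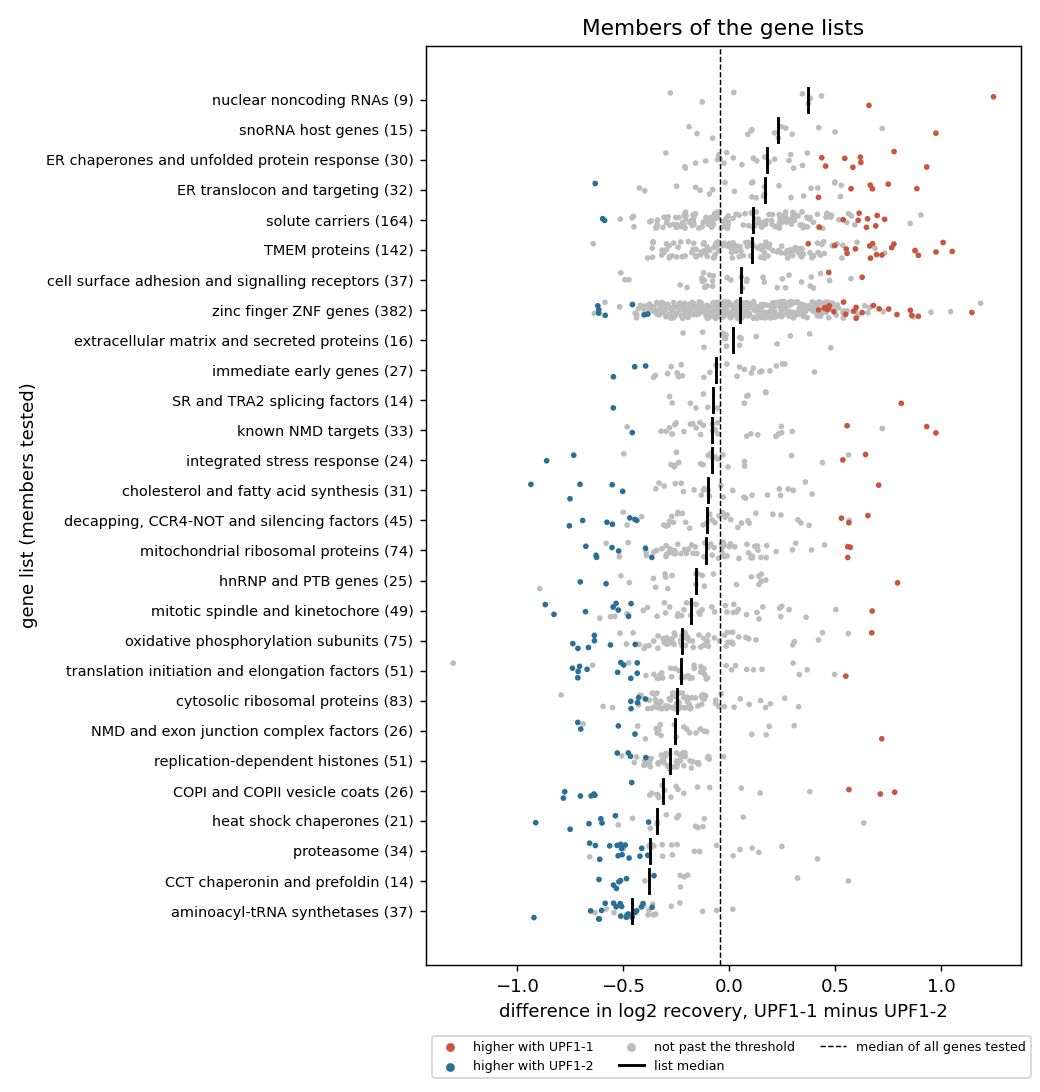
Difference in log2 recovery, UPF1-1 minus UPF1-2, of every tested member of 28 gene lists, ordered by list median; red and blue points passed the test on the side of UPF1-1 and UPF1-2 and grey points did not, black bars are list medians and the dashed line is the median of all genes tested. The medians of the synthetase, chaperonin, proteasome and heat shock lists lie left of the dashed line, with no red point among their members, and those of the ER and TMEM lists lie right of it.

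Smaller shares were called in other lists of translation and chromatin genes. Of 51 translation factors 11 were higher with UPF1-2 (21.6%, and 20 with the block across isoforms) and 1, EIF5A2 (0.55), with UPF1-1. The elongation factor EEF2 was at -0.43, -0.46 and -0.53 against 0.26, 0.16 and 0.29 (-0.71 ± 0.10, adjusted p = 0.015), and its 6 values kept to opposite sides of the median gene. EIF3CL (-0.74 ± 0.18) has the near-identical copy EIF3C, so its value is uncertain. Of 83 cytosolic ribosomal proteins 5 passed, RPS28, RPS4X, RPL8, RPL7A and RPL5, all on the UPF1-2 side (6.02%), with differences from -0.46 to -0.40. That share is below the 14.0% of the highest level quartile, in which 81 of the 83 lay, although the list median was -0.25. With the block across isoforms 27 of the 83 were higher with UPF1-2, as were 891 of 2992 genes of the highest level quartile. Replication-dependent histones had 4 of 51 on the UPF1-2 side, HIST1H2BG, HIST1H1C, HIST1H1D and HIST1H4A, and 0 of 51 above 0, with a median of -0.28. Without number 3 no histone was called, and with the block across isoforms 14 were, to be read beside the same 891 of 2992, since 46 of the 51 were in that quartile. Ribosomal protein and histone genes have pseudogenes or near-identical copies, so their values are uncertain.

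Nuclear-encoded mitochondrial genes, most of them in the highest level quartile with its 14.0%, had few members called. Of 75 oxidative phosphorylation subunits 7 were higher with UPF1-2 (9.33%) and 1, NDUFA5 (0.67), with UPF1-1, and of 74 mitochondrial ribosomal proteins 7 (9.46%) and 3. Under the block across isoforms 25 and 17 were on the UPF1-2 side and 5 of each list on the other, beside 891 and 264 of 2992 genes of that quartile. Those called on the UPF1-2 side included SDHA of complex II, at 0.20, 0.05 and 0.01 against 0.90, 0.73 and 0.85 (-0.74 ± 0.10, adjusted p = 0.015). UQCRC1 (-0.71) and UQCRC2 (-0.66) of complex III did too. Among solute carriers the mitochondrial carriers SLC25A5 (-0.60) and SLC25A3 (-0.59) were the 2 of 164 on the UPF1-2 side, while 9 carriers were on the UPF1-1 side. The median of the mitochondrial ribosomal proteins, -0.11, changed sign to 0.02 among genes with at least 5 TPM in each group.

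Called members of the ER chaperone list were all on the UPF1-1 side, as were most of the translocon list. Of 30 ER chaperones and unfolded protein response genes 8 were higher with UPF1-1 (26.7%) and 0 with UPF1-2, with a median of 0.18. The lectin chaperone CANX was at 0.15, 0.13 and 0.20 against -0.22, -0.20 and -0.46 (0.45 ± 0.11, adjusted p = 0.037). The other 7 had a mean under 5 TPM in a group: DNAJB9 (0.93), ERO1LB (0.78), SEL1L (0.62), DNAJC10 (0.62), DNAJC3 (0.58), ERO1L (0.54) and EDEM3 (0.44). The main lumenal chaperone HSPA5 was at -0.01 ± 0.14 (adjusted p = 0.96). Without number 3, 5 of the 30 passed. Of 32 genes of the ER translocon and of protein targeting 6 were higher with UPF1-1 (18.8%), the membrane components TRAM1, SEC62 (0.75), OSTC (0.66), SEC63 (0.57) and SSR1 (0.42) and the signal recognition particle subunit SRP19 (0.67 ± 0.15). SRP68 of the same particle was on the UPF1-2 side (-0.63 ± 0.15, adjusted p = 0.040). With the block across isoforms the list had 12 on the UPF1-1 side and 2 on the other.

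The called members of the vesicle coat list split by the kind of protein. Of 26 genes 7 were higher with UPF1-2, all of them coat subunits (12 on that side with the block across isoforms): COPG1 (-0.78), SEC23B (-0.78), COPA (-0.70), SEC24C (-0.65), SEC31A (-0.64), COPB2 (-0.63) and COPB1 (-0.46). The 3 higher with UPF1-1, LMAN1 (0.78), TMED10 (0.71) and TMED2 (0.56), are cargo receptors that span the membrane. COPG1 was at -0.71, -0.79 and -0.87 against 0.05, -0.10 and 0.04, and SEC23B at 0.37, 0.40 and 0.60 against 1.16, 1.21 and 1.33, with no overlap in either. For both, total RNA carried the larger part, 0.56 ± 0.05 and 0.55 ± 0.08 (SD, n = 3), against -0.22 ± 0.09 and -0.22 ± 0.04 in the IPs. The split was seen after the values were known and was not tested. It covers only the members called, and others such as KDELR1 (-0.28), SEC22B (-0.15) and KDELR2 (0.14) did not pass.

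TMEM genes, a symbol shared by membrane proteins of many functions, had 17 of 142 on the UPF1-1 side (12%) and 0 on the UPF1-2 side, with a median of 0.11. TMEM167A of the Golgi membrane was at 0.39, 0.43 and 0.78 against values from -0.33 to just under 0 (0.67 ± 0.14, adjusted p = 0.028). Leaving out number 3 gave 18, and the block across isoforms 33, with 5 on the other side. Solute carriers had 9 of 164 (5.49%), near the background, with a median of 0.11, and 25 against 8 with the block across isoforms. Cell surface receptors had 2 of 37, ITGB1 (0.47) and BMPR2 (0.63), and 7 against 2 with that block. None of the 16 extracellular matrix and secreted protein genes was called, 0 on each side, and CST3, the most abundant, was at -0.12 ± 0.19 (limma adjusted p = 0.72); with the block across isoforms 2 were on the UPF1-1 side. Zinc finger ZNF genes, mostly of low level, had 21 of 382 on the UPF1-1 side (5.50%) and 7 on the other (1.83%), and 54 and 13 with the block across isoforms.

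**Figure D5:**
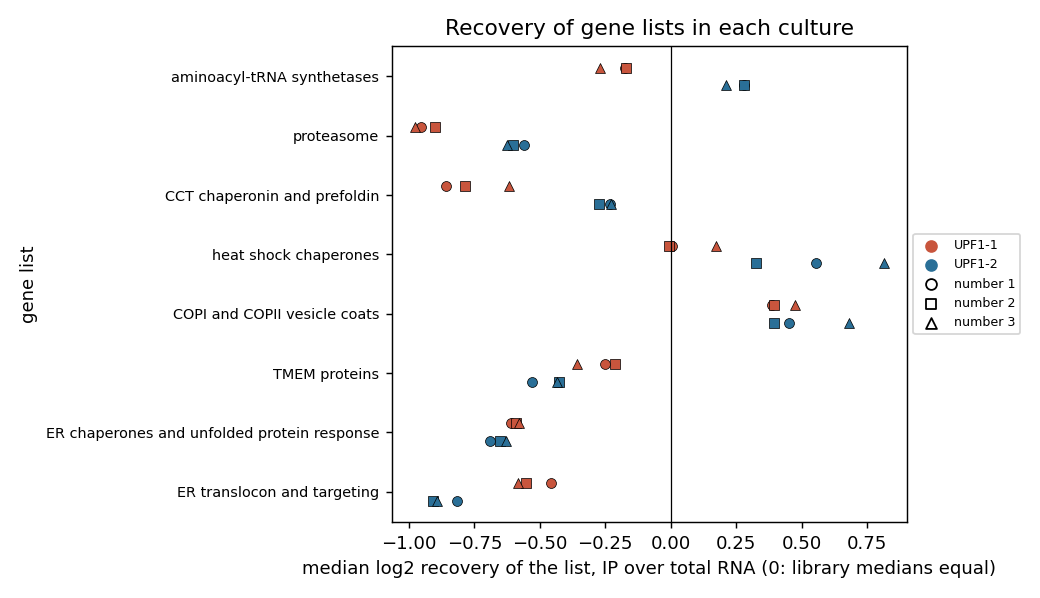
Median log2 recovery over the members of 8 gene lists in each culture (horizontal axis, 0 where library medians are equal), with color for the isoform and symbol for the replicate number. UPF1-2 cultures lie to the right of all UPF1-1 cultures for the synthetase, proteasome, chaperonin and heat shock lists and to the left for the TMEM and both ER lists, while the COPI and COPII cultures of the isoforms overlap.

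Genes of the NMD machinery mostly lay on the UPF1-2 side of 0, 21 of 26, with a median of -0.26 and 4 called. Of all 11969 genes tested, 6624 lay on that side. The 4 are 15.4% of the list, against 6.27% of all genes and 14.0% of the highest level quartile. In that quartile lay 14 of the 26, of which 2 were called on the UPF1-2 side. EIF4A3, the helicase at the core of the exon junction complex, was at -1.11, -0.81 and -0.59 against 0.10, -0.24 and -0.23 (-0.71 ± 0.16, adjusted p = 0.032). SMG8 (-0.52) and SMG9 (-0.70), which regulate the SMG1 kinase that phosphorylates UPF1, and the helicase DHX34 (-0.45) also passed. SMG9 was recovered well in all 6 cultures, at 1.32, 1.32 and 0.96 against 1.89, 1.92 and 1.89. Its total RNA was at 9.51, 9.30 and 19.2 TPM with UPF1-1 and at 3.94, 4.02 and 10.5 TPM with UPF1-2, a difference of 1.00 ± 0.11 (SD, n = 3), while the IPs differed by 0.30 ± 0.11 in the same direction. Its lower ratio with UPF1-1 thus came with a higher level of SMG9 RNA in both kinds of library. PNRC2, which links UPF1 to decapping, was the 1 gene on the UPF1-1 side, at 0.90, 0.85 and 0.93 against 0.32, 0.24 and -0.03 (0.72 ± 0.12, adjusted p = 0.016). UPF2 (-0.21), SMG1 (-0.25), SMG5 (-0.32), SMG6 (-0.33) and UPF3B (0.11) had adjusted p from 0.21 to 0.87. With the block across isoforms 8 of the 26 were higher with UPF1-2.

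Known NMD targets did not lean to either side: 3 of 33 were higher with UPF1-1 (ZFAS1, DNAJB9 and TMEM33) and 1 with UPF1-2 (CARS), with a median of -0.08 that was above 0, by less than 0.01, with 75th percentiles set equal and at 0.05 among genes with at least 5 TPM in each group. Under the block across isoforms 4 passed on the UPF1-1 side and 5 on the UPF1-2 side. Integrated stress response genes, which raise amino acid supply and restrain translation, had 2 of 24 on each side, and 3 on each with that block. The asparagine synthetase ASNS was at 0.15, 0.10 and 0.06 against 1.01, 0.83 and 1.05 (-0.86 ± 0.10, adjusted p = 0.015), and the serine synthesis enzyme PHGDH at -0.93, -1.04 and -1.03 against -0.21, -0.43 and -0.15 (-0.73 ± 0.11, adjusted p = 0.015). Both were higher in total RNA and lower in the IP with UPF1-1, by 0.31 ± 0.01 and -0.55 ± 0.14 for ASNS. On the UPF1-1 side were the transcription factor CEBPG (0.54 ± 0.14, adjusted p = 0.049) and PPP1R15B (0.64 ± 0.12), a phosphatase subunit that restores translation. Several stress regulators were higher with UPF1-1 both in the cells and in the IPs, and were chosen for mention after their values were seen. XBP1 differed by 0.98 in total RNA and 1.04 in the IPs, TRIB3 by 0.89 and 0.86, PPP1R15A by 0.94 and 0.81 and ATF3 by 0.82 and 0.68. Their differences in recovery, 0.06 ± 0.15, -0.03 ± 0.17, -0.12 ± 0.12 and -0.14 ± 0.09 (SE), did not pass (adjusted p from 0.38 to 0.93). DDIT3 differed by 0.70 in total RNA but by 0.20 in the IPs, which left -0.50 ± 0.19 in recovery (adjusted p = 0.12).

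The transcripts of HNRNPL and PTBP1, whose proteins protect some mRNAs from UPF1, were on the UPF1-2 side. HNRNPL was at -0.32, -0.49 and -0.84 against 0.22, 0.03 and 0.19 (-0.70 ± 0.14, adjusted p = 0.024), and PTBP1 at 0.67, 0.53 and 0.62 against 1.14, 1.17 and 1.26 (-0.58 ± 0.10, adjusted p = 0.017). The paralog PTBP3, at 1.09 TPM with UPF1-1 and 1.87 TPM with UPF1-2 in total RNA, went the other way (0.79 ± 0.21, adjusted p = 0.048). These were the 3 called of 25 hnRNP and PTB genes, whose median was -0.16. The highest level quartile held 19 of the 25, and 2 of these, HNRNPL and PTBP1, were on the UPF1-2 side. That share is below the 14.0% of all genes of the quartile on that side. With the block across isoforms 11 of the 25 were on the UPF1-2 side, beside 891 of 2992 genes of the highest level quartile. Of 14 SR and TRA2 splicing factors SRSF5 (-0.55 ± 0.13, adjusted p = 0.037) and SRSF12 (0.81) were called, and 3 on the UPF1-2 side with the block across isoforms.

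Of 45 decapping, deadenylation and silencing factors 7 were higher with UPF1-2 and 3 with UPF1-1 (9 and 5 with the block across isoforms). The nuclear exosome nuclease EXOSC10 was at -0.02, 0.09 and 0.15 against 0.86, 0.70 and 0.92 (-0.75 ± 0.10, adjusted p = 0.015), the decapping scaffold EDC4 at -0.15, -0.23 and -0.44 against 0.53, 0.35 and 0.37 (-0.69 ± 0.12, adjusted p = 0.017), and the exporter of microRNA precursors XPO5 differed by -0.47 ± 0.09. The decapping enzyme DCP2 was on the UPF1-1 side, at 0.53 ± 0.11 (adjusted p = 0.025), through its total RNA, which was lower with UPF1-1 by -0.71, while the IPs differed by -0.19. The deadenylases CNOT6 (0.65) and CNOT6L (0.56) were the other 2.

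Mitotic genes had 8 of 49 on the UPF1-2 side (16.3%) and 1, CENPA (0.67), on the other, with a median of -0.18. All 8 were among the 27 in the highest level quartile, where 14.0% of all genes were on that side. The cytokinesis motor KIF20A was at 0.26, 0.33 and 0.28 against 1.36, 1.06 and 1.05 (-0.87 ± 0.11), the checkpoint target CDC20 at -0.65, -0.49 and -0.84 against 0.23, 0.13 and 0.14 (-0.83 ± 0.11), and the kinase AURKB differed by -0.68 ± 0.11 (adjusted p from 0.015 to 0.016). The groups did not overlap in any of these 3. Without number 3, 12 of the 49 were on the UPF1-2 side, and 16 with the block across isoforms, beside 891 of 2992 genes of the highest level quartile. Of 31 cholesterol and fatty acid synthesis genes 5 were on the UPF1-2 side, FASN, FDPS (-0.75), ACLY (-0.70), LSS (-0.55) and NSDHL (-0.50), and 1, SC5D (0.70), on the other, where 3 lay with the block across isoforms. Immediate early genes had 3 of 27, MYC at -0.47, -0.49 and -0.51 against 0.21, 0.01 and -0.04 (-0.55 ± 0.10, adjusted p = 0.021), JUN (-0.45) and IER5 (-0.39), although the list median of -0.06 was above 0 with 75th percentiles set equal and without number 3. Mitochondrially encoded genes were not among the genes tested.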

How the data were processed

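The data were 1 deposited table of TPM values, 1 Ensembl transcript per gene, of which the 12 UPF1 libraries were used. Per the submitters' processing notes, cutadapt, kallisto and sleuth were used with the build hg19; versions are not given in the sources used here. The ratios of IP to total RNA that the authors deposited equalled the ratios of their TPM values in every entry, within 1e-06. Per the labels' protocols, ribosomal RNA was depleted before library preparation. Read counts were not given, so the depth behind a value is unknown. The table held no coordinates of the build, and none are printed.

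A pseudocount of 0.5 was added to TPM before log2 was taken, and library medians were set equal. Genes reaching 1 TPM in 3 or more libraries entered a limma fit with an intensity trend (limma 3.58.1, R 4.3.3), in which the culture (isoform and number) was a block. The Benjamini-Hochberg adjustment of the 2-sided p-values covered 11969 genes, and calls were made at 0.05. The fit was checked on simulated data. IP and total RNA of a culture deviated together (r = 0.62 to 0.81 in 6 cultures). Across the isoforms, same numbers correlated at 0.18, 0.41 and 0.51, and different numbers at 0.15, 0.16 and -0.24 to -0.44. The 0.15 and 0.16 are those of numbers 1 and 2 crosswise, so whether the number pairs the isoforms is not settled. Counts with the block across isoforms stand beside most of those it moves by over 1.5 times.

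Named genes were UPF1, then the 12 with the largest difference in each direction among genes that passed, had at least 5 TPM in each of the 4 groups and did not overlap. For each list the up to 3 members with the largest absolute difference under the same level rule followed, or the most abundant member where none passed. 1 gene that met the rule is not reported here. Other genes were named after their values were seen. The comparison and the 29 lists were chosen with earlier results of these data known, and the lists were corrected for misplaced symbols after values were seen. A RefSeq biotype was matched for 11457 genes.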

Additional observations from a re-analysis of the deposited data

Results flagged for a closer look

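The isoform difference is itself a test of whether recovery over total RNA differs between 2 cell lines, and by it 530 genes were higher with UPF1-1 and 750 with UPF1-2. In 129 of the genes called, recovery was above 0 in all 3 UPF1-1 cultures and below 0 in all 3 UPF1-2 cultures, and in 124 the reverse held. The median recovery over all genes tested was -0.18 to -0.13 per culture, so values just under 0 were not below the median gene.

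Among the named genes, 16 had recoveries of opposite sign in the isoforms in this way. RNF11 (0.89), CANX (0.45) and TMEM167A (0.67) were above 0 with UPF1-1. The cytosolic and translational genes VARS (-0.92), AARS (-0.65), EEF2 (-0.71) and HSPA1A (-0.75) were above 0 with UPF1-2. So were the mitochondrial genes YARS2 (-0.62), SLC25A3 (-0.59), MRPS22 (-0.63) and UQCRC2 (-0.66), and FLNA (-0.88), SRRT (-0.87), CDC20 (-0.83), HNRNPL (-0.70) and EDC4 (-0.69). The value 0 depends on the library scaling, and several recoveries lay close to it: AARS was at -0.0007 in UPF1-1 number 1, UQCRC2 at -0.0083 in UPF1-1 number 2 and TMEM167A at -0.0018 in UPF1-2 number 2.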

How the results depend on the processing

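With library medians not set equal, no gene passed in either direction (0 and 0, 1878 at an unadjusted p under 0.05 by limma). The counts higher with UPF1-1 and with UPF1-2, 530 and 750, were 846 and 459 with 75th percentiles set equal, 99 and 201 with a pseudocount of 2 TPM, and 319 and 306 when the 3127 genes averaging 5 TPM or more in every group were fitted, where fewer genes were tested. Without an intensity trend they were 371 and 422. They were 0 and 0 with no replicate block, 1212 and 1785 with the replicate block across isoforms, and 984 and 1327 with that block without replicate 3, a setting chosen after the data were seen. Leaving out 1 number or 1 culture gave 0 to 583 and 0 to 726. A pseudocount of 0.1 TPM and no filter kept both within 1.5 times. The cause of these moves was not tested, and several of the settings also held fewer genes or samples. All genes called that could be tested kept their direction in every setting, and no named gene reversed. Every gene called had the same sign in all 3 numbers, so this outcome was close to fixed in advance. Of the 82 genes named by the rule, 76 kept their side of the threshold with 75th percentiles set equal, 44 with a pseudocount of 2 TPM and 82 with the block across isoforms. Weighting the libraries by their spread gave no value, since the weights did not converge. TPM carries no read counts, so precision at low levels is unknown.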

Other observations

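5 further lists were written after the values were seen, so their counts describe these data and no more. All leaned to UPF1-2, as did the highest level quartile, which held many of their members. DEAD and DEAH box helicases, which unwind or remodel RNA, had 17 of 47 higher with UPF1-2 (36.2%) and 0 with UPF1-1, led by DHX30 (-0.78), DDX24 (-0.75) and DHX16 (-0.68). Nuclear pore proteins had 12 of 29 (41.4%) and 0, with NUP93 (-0.85), AAAS (-0.83) and NUP188 (-0.77). Ribosome biogenesis genes had 22 of 66 (33.3%) on that side and 1, NOP10 (0.66), on the other. Replication licensing and fork genes had 12 of 42 (28.6%) and 0, among them POLD1 (-0.77) and the helicase subunits MCM7 (-0.69), MCM5 (-0.67) and MCM3 (-0.65). Actin and focal adhesion genes had 8 of 41 (19.5%), with FLNA, TLN1 (-0.87) and MYH9 (-0.86), and 1, TWF1 (0.69), on the other side. The counts on the UPF1-2 side with the block across isoforms were 28 for the helicases, 14 for the pore proteins, 34 for ribosome biogenesis, 20 for replication and 13 for actin genes. Of all genes tested, 14.9% were on that side with that block. In the highest level quartile they were 891 of 2992 genes, a share close to the 13 of 41 actin genes. That quartile held 22 of the helicases, 18 of the pore proteins, 46 of ribosome biogenesis, 30 of replication and 30 of actin genes. In the main fit 9, 10, 18, 9 and 6 of these were on the UPF1-2 side, beside 14.0% of the quartile.

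Of 74 groups of at least 15 genes that share the letters of their symbol, the median was lowest for NUP (-0.48, 11 of 20 higher with UPF1-2) and DHX (-0.47, 8 of 15) and highest for ARL (0.23, 2 of 22 higher with UPF1-1) and NR (0.15, 2 of 17).

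Several of the widest differences did not pass, and their replicate numbers disagreed. The pseudogene PPIAP22 was at 1.96, 6.94 and -0.37 in numbers 1 to 3, GNB2 at -4.98, -0.26 and -0.80, DDB1 at -4.83, -0.84 and -0.02, and KRTCAP2 at -1.60, 0.85 and -4.33. Each rested on 1 number or changed sign between numbers. MAP3K4 was at 2.68, 1.74 and 3.36 and missed the threshold (2.59 ± 0.79 SE, limma adjusted p = 0.073).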
